A study of Homo sapiens with 12 samples.

Results

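The metallothionein and zinc response genes described here were 9 named genes: the metallothioneins MT1E, MT1F, MT1G, MT1H, MT1M, MT1X and MT2A, the transcription factor MTF1 and the zinc exporter SLC30A1. All probe sets that the array annotation assigns to exactly 1 of these genes were taken, whatever their values. This gave 17 of the 54675 probe sets on the array and 9 of the 19775 genes with a probe set. Of the 17, 15 had a mean of 4 log2 units or more across all 12 arrays and so passed the filter, among them 10 of the 11 metallothionein probe sets. The remaining probe sets, 210472_at for MT1G and 242716_at for SLC30A1, lay between 2.06 and 2.47 log2 units on every array and were not tested.

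Metallothioneins are small cysteine-rich proteins that bind zinc and copper in the cell and also bind cadmium and other toxic metals. Free zinc is sensed by MTF1, a zinc-finger transcription factor that binds metal response elements in the promoters of metallothionein genes and of SLC30A1, whose protein (also called ZnT1) carries zinc out through the plasma membrane. In the kidney, metallothioneins of the proximal tubule are known for binding filtered and accumulated cadmium. Glucocorticoids are a further known inducer of MT2A.

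RNA of HK-2 cells, a human proximal tubule epithelial line that has been immortalised, was measured on 12 Affymetrix arrays. The 4 groups of 3 arrays were cells exposed to a low dose of the compound that the labels call Aa for 24 h, cells given the control vehicle for 24 h, cells exposed to Aa for 48 h, and cells given the vehicle for 48 h. The sources used here do not give the dose as a number, the name behind Aa or what the vehicle was. All groups grew in the same medium, which contained hydrocortisone, a glucocorticoid, together with insulin, transferrin, selenite and EGF. Arrays of a group are labelled as biological replicates, with no word on whether they came from separate cultures, so the p-values reflect only the spread among these arrays, which may be technical.

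Only 3 of 12 proximal tubule markers with a probe set had a mean log2 value of at least 4 (SLC3A1, CDH6 and PAX8), and the defining markers LRP2, CUBN and AQP1 did not. Of the kidney epithelium markers 6 of 7 did, and of the fibroblast markers 3 of 6 did (DCN, LUM and COL1A1), while 1 of 5 distal nephron markers (SCNN1A), 0 of 5 endothelial and 0 of 4 leukocyte markers did. The summed log2 level of the 12 proximal tubule markers was 53.20 to 55.04 in Aa cells and 55.35 to 56.37 in control cells at 24 h, and 51.39 to 53.76 in Aa cells and 56.13 to 56.89 in control cells at 48 h. The largest differences were those of SLC3A1 and CDH6. In Aa and control cells at 48 h SLC3A1 averaged 7.70 and 9.57, and CDH6 11.00 and 12.49. The proximal tubule markers with means below 4 averaged 2.08 to 3.09 in every group. The sum over the 6 fibroblast markers was 36.59 to 37.86 in Aa cells and 38.14 to 39.44 in control cells at 24 h, and overlapped at 48 h, with 36.89 to 37.86 in Aa cells and 37.46 to 38.26 in control cells. Kidney epithelium markers summed to 66.98 to 68.01 in Aa cells and 69.02 to 70.2 in control cells at 24 h, and overlapped at 48 h (67.79 to 68.91 in Aa cells, 68.2 to 70.01 in control cells). The distal nephron sum overlapped at 24 h (21.0 to 21.1 in Aa cells, 20.83 to 21.14 in control cells). At 48 h it was higher in Aa cells (21.09 to 22.06, against 20.74 to 21.0 in control cells). Of these markers only SCNN1A was higher in Aa cells at 48 h, with a mean of 10.26 against 9.46 in control cells. The other distal nephron markers, all with means below 4, were not higher. The endothelial and leukocyte sums overlapped at both times. The array maker's 28S ribosomal RNA control probe sets were brighter in Aa cells, by 1.37 log2 units at 24 h (10.11 ± 0.32 against 8.74 ± 0.12, SD, n = 3 each) and by 1.22 at 48 h (10.53 ± 0.37 against 9.30 ± 0.23). The part of these measures in the results below was not tested. Levels here come from bulk RNA, in which fewer cells of a type and less RNA per cell cannot be told apart.

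The 7 metallothionein genes lie in 1 cluster on chromosome 16 in the RefSeq annotation of GRCh38.p14, MT2A at chr16:56608584-56609497, MT1E at chr16:56625781-56627112, MT1M at chr16:56632659-56633981, MT1F at chr16:56657959-56659303, MT1G at chr16:56666730-56668065, MT1H at chr16:56669814-56671129 and MT1X at chr16:56682470-56684196. MTF1 lies at chr1:37809574-37859592 and SLC30A1 at chr1:211571568-211579161. RefSeq promoters, 250 bases before to 50 bases after the annotated start, were available for 5 of the 9 genes. They are shown because MTF1 acts through elements in such promoters and because MTF1 and the metallothioneins both held probe sets that passed the test. The sequences run 5′ to 3′ on the gene's own strand, and capitals mark every match on either strand to TGCACNC or TGCGCNC, the core of the metal response element. They cover chr16:56608334-56608633 on the plus strand for MT2A, chr16:56669564-56669863 on the plus strand for MT1H, chr16:56682220-56682519 on the plus strand for MT1X, chr1:211579112-211579411 on the minus strand for SLC30A1 and chr1:37859543-37859842 on the minus strand for MTF1.
MT2A: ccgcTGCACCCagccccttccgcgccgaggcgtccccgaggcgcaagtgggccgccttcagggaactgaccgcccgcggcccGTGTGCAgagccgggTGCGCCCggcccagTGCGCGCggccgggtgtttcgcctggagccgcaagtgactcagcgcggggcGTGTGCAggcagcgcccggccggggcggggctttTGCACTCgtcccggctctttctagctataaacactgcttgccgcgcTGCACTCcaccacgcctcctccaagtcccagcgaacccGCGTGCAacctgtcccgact
MT1H: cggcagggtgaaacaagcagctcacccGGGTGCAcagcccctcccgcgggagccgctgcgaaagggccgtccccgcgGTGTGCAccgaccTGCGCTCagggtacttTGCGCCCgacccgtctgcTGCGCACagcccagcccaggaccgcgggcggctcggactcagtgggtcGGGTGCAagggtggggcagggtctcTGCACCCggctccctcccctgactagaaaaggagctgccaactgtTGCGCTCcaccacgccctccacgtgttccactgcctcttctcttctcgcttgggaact
MT1X: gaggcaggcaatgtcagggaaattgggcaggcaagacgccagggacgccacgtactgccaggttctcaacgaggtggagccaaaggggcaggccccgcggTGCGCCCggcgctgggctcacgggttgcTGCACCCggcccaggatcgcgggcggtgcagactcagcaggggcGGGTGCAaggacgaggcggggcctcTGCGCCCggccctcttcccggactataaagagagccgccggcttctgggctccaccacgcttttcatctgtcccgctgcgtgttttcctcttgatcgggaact
SLC30A1: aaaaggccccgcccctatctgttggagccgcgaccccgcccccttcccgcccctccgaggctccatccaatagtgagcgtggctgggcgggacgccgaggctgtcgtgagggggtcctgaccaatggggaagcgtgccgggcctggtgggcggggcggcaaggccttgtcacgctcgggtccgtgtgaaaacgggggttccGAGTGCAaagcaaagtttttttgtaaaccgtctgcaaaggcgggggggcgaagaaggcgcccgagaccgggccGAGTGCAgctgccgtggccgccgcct
MTF1: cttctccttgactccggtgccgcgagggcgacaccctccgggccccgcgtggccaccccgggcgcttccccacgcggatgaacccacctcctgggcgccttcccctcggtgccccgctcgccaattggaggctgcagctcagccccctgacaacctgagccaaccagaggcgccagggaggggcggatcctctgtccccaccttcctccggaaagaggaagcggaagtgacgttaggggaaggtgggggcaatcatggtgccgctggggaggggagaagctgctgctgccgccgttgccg

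The promoters of MT2A and MT1H held 8 matches each, that of MT1X 4 and that of SLC30A1 2, and the MTF1 promoter held 0. In MT2A, 6 of the matches were to TGCACNC and 2 to TGCGCNC, while MT1H had 4 of each and MT1X 2 of each. No match overlapped another. Of the 35116 RefSeq promoters of the same length, 12.1% held TGCACNC, 20.0% held TGCGCNC and 29.6% held at least 1 of these motifs. At least 2 matches were found in 8.6% of promoters, at least 4 in 0.601% and at least 8 in 7 promoters (0.0199%). The letters AGAACA, a short motif of the glucocorticoid receptor that 14.8% of promoters hold on either strand, were in 0 of the 5 windows. A match describes the letters of the window and is not a measurement of binding. The search for AGAACA covers only those letters within these windows, so it cannot show that a gene lacks a receptor site.

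**Figure D1:**
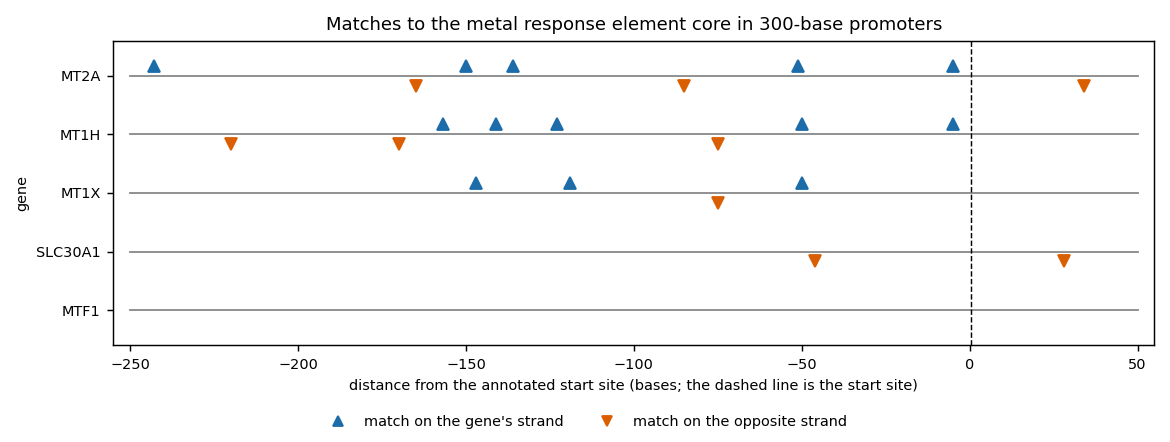
Matches to TGCACNC or TGCGCNC in the 300-base RefSeq promoters of MT2A, MT1H, MT1X, SLC30A1 and MTF1, by distance in bases from the annotated start site (dashed line). Upward triangles are matches on the gene's strand and downward triangles matches on the opposite strand; MT2A and MT1H have 8 each, MT1X 4, SLC30A1 2 and MTF1 0.

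Levels were read within each probe set and not between probe sets. Of the 17 probe sets 9 end in _x_at, which marks probes that can also bind transcripts of other genes, and 2 end in _s_at, which marks probes shared by several transcripts. All 9 _x_at probe sets are metallothionein ones, and they therefore cannot be taken to measure separate genes. Which genes each of them reads was not tested. The only metallothionein probe set past the filter with neither ending is 217546_at for MT1M.

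At 48 h most metallothionein probe sets were lower in Aa cells, and at 24 h none of them passed the test, whereas MTF1 was higher in Aa cells at 24 h. With limma and Benjamini-Hochberg adjustment over all 22515 probe sets tested, 9 of the 10 tested metallothionein probe sets fell at 48 h, with changes of -35.2% to -18.2%. The annotation assigns these 9 to 6 of the genes and the tenth to MT1M, but since the 9 may cross-bind they do not show how many of the genes fell. All 3 MTF1 probe sets rose at 24 h, to between 1.39 and 1.65 times the control level. At 48 h 0 of these 3 passed, but with the replicate number as a block 2 did, where 24.8% of all probe sets rose. Without the block, 0 of 15 member probe sets passed for a change of the Aa effect between the times. The calls therefore do not show that an effect belongs to 1 time only. Neither tested SLC30A1 probe set passed the threshold at either time. Each difference below is Aa minus control in log2 units, and its SE is the standard error from limma.

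MT2A encodes a metallothionein that most tissues express. Its probe set 212185_x_at read 14.05, 14.01 and 14.00 log2 units in Aa cells at 48 h, against 14.42, 14.23 and 14.58 in control cells at 48 h. Every Aa array lay below every control array. The difference was -0.39 (SE 0.10, limma adjusted p = 0.0125), a level 0.763 times that of the control cells. At 24 h it read 14.50, 14.44 and 14.45 in Aa cells, against 14.63, 14.52 and 14.59 in control cells. The Aa arrays were again all below the control arrays, but the difference of -0.12 (SE 0.10) did not pass the test (limma adjusted p = 0.454).

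MT1F, a further isoform, is read by 2 probe sets, and 213629_x_at had the lowest difference of the 10 at 48 h. It read 12.07, 11.96 and 11.69 log2 units in Aa cells at 48 h, against 12.60, 12.56 and 12.44 in control cells at 48 h. The groups did not overlap, and the difference was -0.63 (SE 0.12, limma adjusted p = 0.00274). The second MT1F probe set, 217165_x_at, read 12.64, 12.64 and 12.53 in Aa cells and 13.10, 13.01 and 13.06 in control cells at 48 h. It too showed no overlap and differed by -0.45 (SE 0.08, limma adjusted p = 0.00251). At 24 h the same probe set read 13.05, 12.92 and 12.99 in Aa cells and 13.19, 13.11 and 13.21 in control cells. Those groups did not overlap either, yet the difference of -0.18 (SE 0.08) had a limma adjusted p of 0.148. It passed with no filter (adjusted p = 0.0438), with a trend in eBayes (0.041) and with trend and robust prior (0.0438). For 213629_x_at the 24 h values were 12.45, 12.31 and 12.32 in Aa cells and 12.71, 12.47 and 12.45 in control cells, with overlap.

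MT1X, an isoform of the MT1 group, is read by 2 probe sets that gave like differences between Aa and control cells. 204326_x_at read 12.30, 12.22 and 12.03 log2 units in Aa cells at 48 h, against 12.85, 12.61 and 12.76 in control cells at 48 h. 208581_x_at read 13.19, 13.05 and 13.03 in Aa cells and 13.59, 13.43 and 13.68 in control cells at 48 h. In both the Aa arrays were all below the control arrays, with differences of -0.56 (SE 0.15, limma adjusted p = 0.0167) and -0.48 (SE 0.10, limma adjusted p = 0.00513). At 24 h 204326_x_at read 13.07, 12.65 and 12.53 in Aa cells and 13.13, 12.87 and 12.86 in control cells. Replicate 1 of the Aa cells lay above 2 of the 3 control arrays there, so the groups overlapped. At 24 h 208581_x_at read 13.71, 13.52 and 13.52 in Aa cells and 13.81, 13.69 and 13.75 in control cells, also with overlap.

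MT1E is likewise read by 2 probe sets. 212859_x_at read 13.46, 13.32 and 13.41 log2 units in Aa cells at 48 h, against 13.70, 13.55 and 13.81 in control cells at 48 h. 216336_x_at read 11.96, 11.84 and 11.98 in Aa cells and 12.26, 12.19 and 12.48 in control cells at 48 h. Neither pair of groups overlapped, and the differences were -0.29 (SE 0.10, limma adjusted p = 0.0407) and -0.38 (SE 0.10, limma adjusted p = 0.0159). At 24 h 212859_x_at read 13.78, 13.83 and 13.64 in Aa cells and 13.81, 13.80 and 13.81 in control cells. The control values fell inside the Aa values. At 24 h 216336_x_at read 12.35, 12.47 and 12.33 in Aa cells and 12.46, 12.33 and 12.32 in control cells, so these groups overlapped as well.

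MT1H and MT1G are neighbours in the cluster. MT1H, by 206461_x_at, read 12.31, 12.14 and 12.16 log2 units in Aa cells at 48 h, against 12.55, 12.38 and 12.65 in control cells at 48 h, without overlap. MT1G, by 204745_x_at, read 11.18, 10.82 and 11.07 in Aa cells and 11.46, 11.20 and 11.58 in control cells at 48 h, also without overlap, although the highest Aa array and the lowest control array were close. The differences were -0.33 for MT1H (SE 0.10, limma adjusted p = 0.0274) and -0.39 for MT1G (SE 0.13, limma adjusted p = 0.0425), the highest adjusted p among the 9. At 24 h MT1H read 12.55, 12.58 and 12.56 in Aa cells and 12.75, 12.68 and 12.60 in control cells. These groups did not overlap, but the limma adjusted p was 0.453. At 24 h MT1G read 11.71, 11.48 and 11.49 in Aa cells and 11.64, 11.50 and 11.58 in control cells, a difference of -0.01 whose sign turned when arrays were centred on their median (0.01) or quantile normalised (0.03).

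MT1M, read by the probe set without shared-sequence marking, showed another picture. 217546_at read 9.55, 9.33 and 9.32 log2 units in Aa cells at 48 h, against 9.34, 9.21 and 9.57 in control cells at 48 h. The groups overlapped fully, with a difference of 0.03 (95% interval -0.33 to 0.40, limma adjusted p = 0.905). This interval reaches into the range of the differences of the other metallothioneins, and the contrast between MT1M and those probe sets was not tested. At 24 h it read 10.07, 9.53 and 9.89 in Aa cells and 9.86, 9.56 and 9.99 in control cells, again with overlap.

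**Figure D2:**
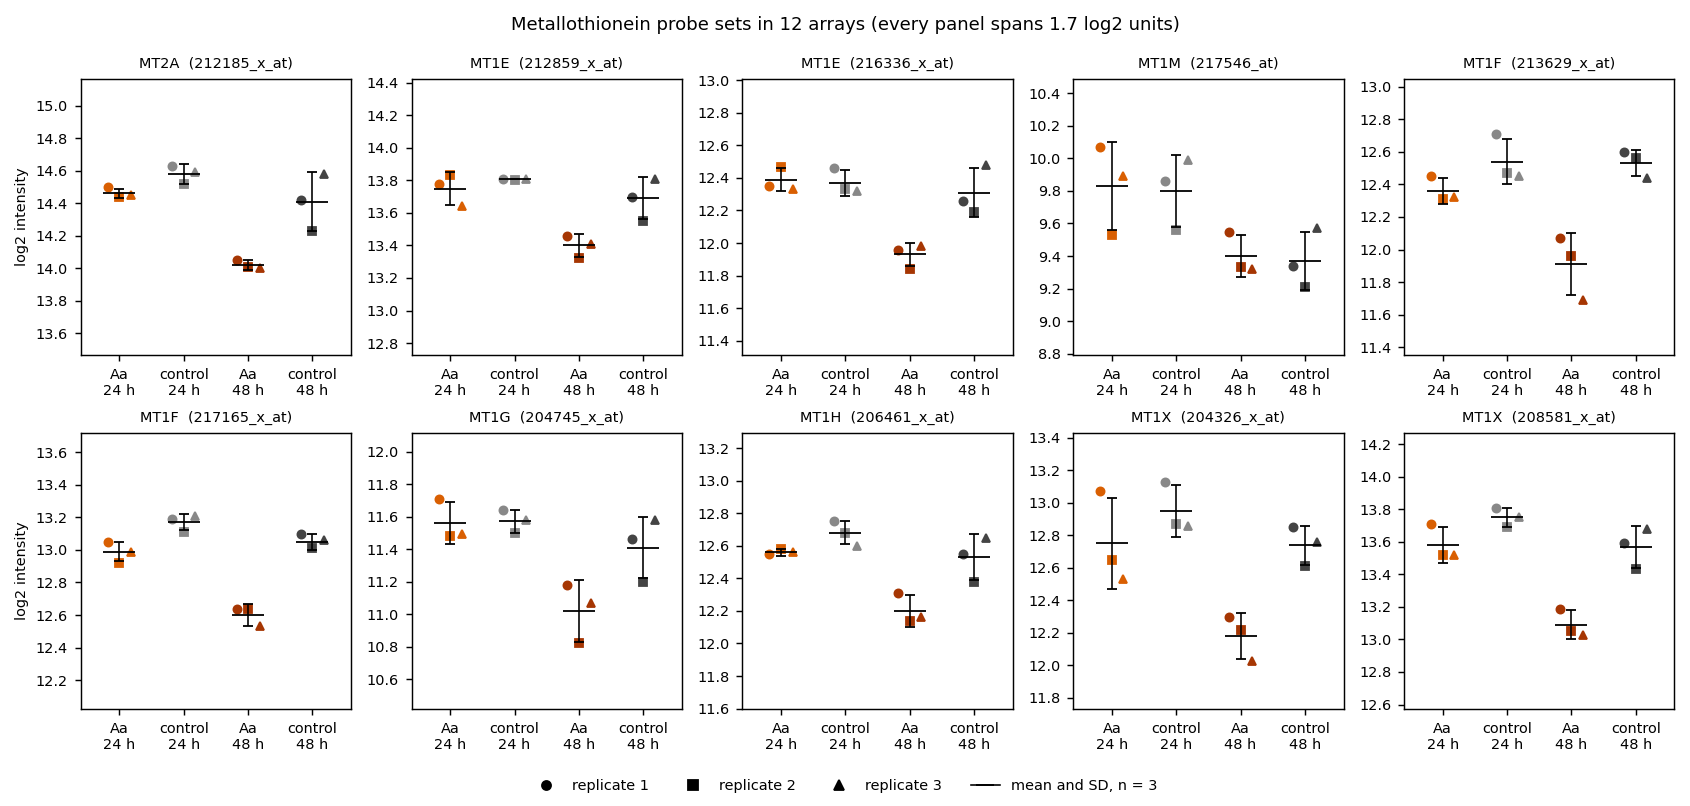
Level of the 10 tested metallothionein probe sets (log2 intensity, each panel with its own axis of equal span) in Aa and control cells at 24 h and at 48 h. Points are arrays with the shape giving the replicate number, and bars are the mean and SD (n = 3); in the 9 _x_at panels the 3 Aa arrays at 48 h sit below the 3 control arrays at 48 h, and in the MT1M panel they overlap.

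Across the metallothioneins, the counts at 24 h were 0 of 10 probe sets up and 0 of 10 down, where 11.6% of all probe sets tested rose and 11.0% fell. At an unadjusted p under 0.05 the count was also 0 of 10, and with the replicate number as a block it stayed at 0 (1 of 10, MT1F by 217165_x_at, fell under the 3 alternatives given above), where 18.5% of all probe sets rose and 21.0% fell. The differences at 24 h lay between -0.20 and 0.03, with limma adjusted p-values from 0.148 to 0.96. In 3 of the 10 the Aa arrays were all below the control arrays, which held for 21.1% of all probe sets. The median difference was -0.12, beside -0.02 over all probe sets.

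At 48 h, 9 of 10 metallothionein probe sets fell and 0 rose, where 16.9% of all probe sets tested fell and 16.3% rose. The median difference of the 10 was -0.39, beside 0.00 over all probe sets. In 9 of 10 the Aa arrays were all below the control arrays, which held for 22.8% of all probe sets. In the _x_at probe sets the 27 differences between arrays of the same replicate number were then all negative as well. This follows from the lack of overlap and is not further evidence. The count of called members dropped to 5 without replicate 3 of the Aa cells at 48 h, without replicate 1 of the control cells at 48 h, or without replicate 3 of those control cells, and to 4 when only the 2 groups compared were fitted. Without the probe sets marked as shared, 4 member probe sets were left to test and 0 of them were called.

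The levels of the metallothioneins followed 1 order over the 4 groups at their low end. In all 9 _x_at probe sets the Aa cells at 48 h were lowest. The other 3 groups were close: MT2A, for example, averaged 14.46 ± 0.03 in Aa cells and 14.58 ± 0.06 in control cells at 24 h, and 14.02 ± 0.03 in Aa cells and 14.41 ± 0.18 in control cells at 48 h (SD, n = 3 each). Neither control cells between the times nor Aa against control cells at 24 h differed past the test in any _x_at probe set. For MT1M the order was by time, with 9.83 ± 0.27 in Aa cells and 9.80 ± 0.22 in control cells at 24 h, and 9.40 ± 0.13 in Aa cells and 9.37 ± 0.18 in control cells at 48 h.

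Within Aa cells, 4 of the 10 metallothionein probe sets fell at 48 h against 24 h, where 1.64% of all probe sets fell. They were MT2A (-0.44, SE 0.10, limma adjusted p = 0.0383), MT1E by 216336_x_at (-0.46, SE 0.10, limma adjusted p = 0.0382), MT1F by 217165_x_at (-0.39, SE 0.08, limma adjusted p = 0.0352) and MT1X by 208581_x_at (-0.49, SE 0.10, limma adjusted p = 0.0287). The other 6 had differences of -0.57 to -0.35 and an unadjusted p under 0.05 each. With the replicate number as a block, 10 of 10 were called, where 8.79% of all probe sets fell. Without any 1 of the Aa arrays at 24 h, or without replicate 1 or replicate 3 of the Aa cells at 48 h, the count was 0. It was 1 without any 1 of the control arrays at 24 h, without replicate 2 of the Aa cells at 48 h or without replicate 1 of the control cells at 48 h.

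Within control cells, 0 of the 15 member probe sets passed at 48 h against 24 h by limma, where 0.129% of all probe sets did. At an unadjusted p under 0.05 there was 1, MT1M, which differed by -0.43 (SE 0.16, limma adjusted p = 0.27, and 0.038 with the replicate block, where 13.6% of all probe sets passed). The 10 metallothionein probe sets had differences from -0.43 to -0.01, and that of MT1F by 213629_x_at (-0.01) turned to 0.01 when arrays were centred on their median. These contrasts over time share arrays with those of Aa against control, so that they are not separate evidence.

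Whether the Aa effect itself changed between the times was tested as a difference of differences. By limma 0 of 15 member probe sets passed, where 0.373% of all probe sets did, and 3 had an unadjusted p under 0.05. These were MT1E by 216336_x_at (-0.40, SE 0.14, adjusted p = 0.288) and both MT1F probe sets, 213629_x_at (-0.45, SE 0.17, adjusted p = 0.304) and 217165_x_at (-0.27, SE 0.12, adjusted p = 0.389). With the replicate number as a block, 213629_x_at passed (limma adjusted p = 0.0464), where 7.73% of all probe sets did. For the 9 _x_at probe sets the differences of differences ran from -0.45 to -0.21. A larger effect at 48 h than at 24 h was thus not shown for the metallothioneins as a group. With the block it was called in only 1 of their 10 tested probe sets.

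MTF1, the zinc sensor, was read by 3 probe sets. 205322_s_at read 8.45, 8.20 and 8.42 log2 units in Aa cells at 24 h, against 7.89, 7.90 and 7.87 in control cells at 24 h. 205323_s_at read 7.78, 8.08 and 7.57 in Aa cells and 7.06, 7.48 and 7.36 in control cells at 24 h. 227150_at read 8.41, 8.35 and 8.42 in Aa cells and 7.40, 8.01 and 7.61 in control cells at 24 h. In all 3 every Aa array was above every control array, which held for 18.7% of all probe sets. The differences were 0.47 (SE 0.12, limma adjusted p = 0.0147), 0.52 (SE 0.16, limma adjusted p = 0.0394) and 0.72 (SE 0.17, limma adjusted p = 0.0108). The count of called members at 24 h was 1 without replicate 1 of the Aa cells at 24 h, and also 1 when the shared probe sets were left out (227150_at, of 4 member probe sets then tested).

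At 48 h 0 of the 3 MTF1 probe sets passed the test. 205322_s_at read 8.23, 8.0 and 8.32 log2 units in Aa cells, against 7.75, 7.92 and 8.01 in control cells. 205323_s_at read 7.44, 7.69 and 7.87 in Aa cells and 7.30, 7.26 and 7.31 in control cells. 227150_at read 8.0, 8.28 and 8.05 in Aa cells and 7.54, 8.0 and 7.66 in control cells. The groups overlapped in 2 of the 3, and in 205323_s_at every Aa array was above every control array, which held for 22.4% of all probe sets. The differences of 0.29 (SE 0.12), 0.37 (SE 0.16) and 0.37 (SE 0.17) had limma adjusted p-values of 0.0784, 0.099 and 0.11. With the replicate number as a block they had 0.0367, 0.053 and 0.0266, so that 2 of 3 passed, where 24.8% of all probe sets rose. All 9 differences between arrays of the same number were positive. The change of the MTF1 difference between the times was -0.18 (SE 0.16), -0.15 (SE 0.23) and -0.35 (SE 0.24), and none of the 3 passed (limma adjusted p of 0.583 or more).

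SLC30A1 was read by 212907_at and 228181_at, which did not move together. 212907_at read 12.43, 12.50 and 12.19 log2 units in Aa cells at 24 h, against 12.08, 12.18 and 11.99 in control cells at 24 h. Every Aa array lay above every control array. The difference of 0.29 (SE 0.13) had a limma adjusted p of 0.145, and of 0.015 with the replicate number as a block, where 18.5% of all probe sets rose. At 48 h the probe set read 12.59, 12.45 and 12.25 in Aa cells and 12.45, 12.48 and 12.18 in control cells, with overlap and a difference of 0.06 (SE 0.13, limma adjusted p = 0.747). In control cells it differed by 0.28 at 48 h against 24 h (SE 0.13, limma adjusted p = 0.346, and 0.0386 with the block).

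The second SLC30A1 probe set, 228181_at, read 8.83, 8.54 and 8.98 log2 units in Aa cells at 24 h, against 8.70, 8.73 and 9.35 in control cells at 24 h. At 48 h it read 8.36, 8.43 and 8.64 in Aa cells and 8.42, 8.86 and 8.99 in control cells. The groups overlapped at both times, with differences of -0.15 (SE 0.21, limma adjusted p = 0.666) and -0.28 (SE 0.21, limma adjusted p = 0.33). The sign was thus opposite to that of 212907_at at both times, and over the 12 arrays the 2 probe sets correlated with r = -0.73. No direction is given for SLC30A1 as a gene.

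**Figure D3:**
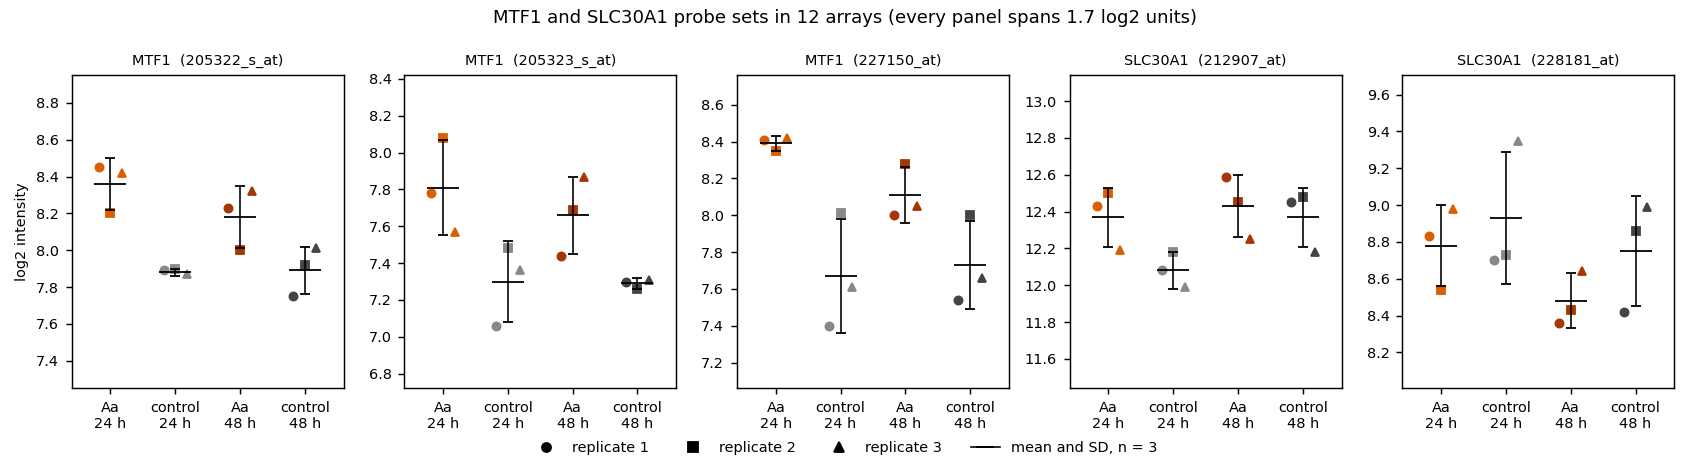
Level of the 3 MTF1 and 2 tested SLC30A1 probe sets (log2 intensity, each panel with its own axis of equal span) in Aa and control cells at 24 h and at 48 h. Points are arrays and bars the mean and SD (n = 3); the Aa arrays at 24 h are all above the control arrays at 24 h in the 3 MTF1 panels and in 212907_at, and overlap them in 228181_at.

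**Figure D4:**
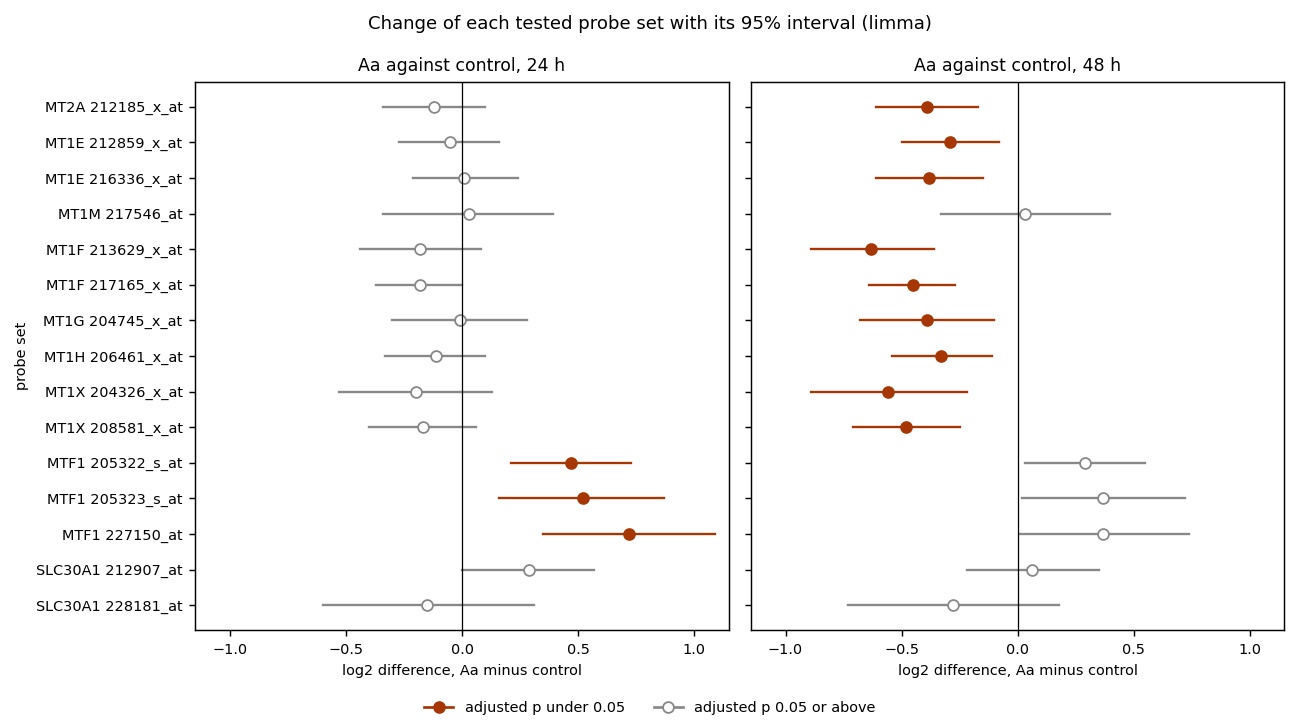
Difference of each tested member probe set, Aa minus control, in log2 units at 24 h (left) and 48 h (right), with its 95% interval from the limma model. Filled points have an adjusted p under 0.05: the 3 MTF1 probe sets at 24 h and the 9 _x_at metallothionein probe sets at 48 h.

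The members were also set side by side over the 12 arrays, which share group and replicate structure, so that the correlations describe these arrays only. Among the 9 _x_at metallothionein probe sets, 36 pairs correlated with r from 0.74 to 0.98 (median 0.92). MT1M correlated with them at 0.35 to 0.72 (median 0.57). The 3 MTF1 probe sets correlated with each other at 0.66 to 0.79 and with the _x_at probe sets at -0.62 to -0.02. Averaged over the 7 metallothionein genes and centred, the level was 0.20, 0.05 and 0.08 in Aa cells and 0.25, 0.13 and 0.22 in control cells at 24 h. At 48 h it was -0.23, -0.38 and -0.35 in Aa cells and 0.03, -0.14 and 0.14 in control cells, so that the Aa arrays at 48 h stood apart from the other 9 arrays.

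Of 10781 genes outside the family, 140 had a Pearson r of at least 0.8 with this average over the 12 arrays and 174 had an r of at most -0.8. The closest were GALNT2, a Golgi enzyme that starts O-linked glycosylation (r = 0.972), MYL9, a myosin regulatory light chain (r = 0.96), DSE, an epimerase of dermatan sulfate synthesis (r = 0.951), MCM5, a subunit of the replicative helicase (r = 0.946) and LTBP2, an extracellular matrix protein (r = 0.94). GALNT2 averaged 10.17 log2 units in Aa cells and 10.58 in control cells at 48 h, and MYL9 8.67 in Aa cells and 10.11 in control cells at 48 h. At the other end were ATP6V1G1, a subunit of the vacuolar proton pump, and EMC7, a subunit of an endoplasmic reticulum membrane complex (r = -0.953 each), then MAPKAPK5-AS1, a non-coding antisense RNA (r = -0.931), ZNF671, a zinc-finger gene (r = -0.926) and WTAP, a subunit of the RNA methylation complex (r = -0.922). ATP6V1G1 averaged 11.98 in Aa cells and 11.69 in control cells at 48 h.

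The wider zinc system was followed in lists of genes, each gene by its brightest tested probe set. Of the 9 other metallothionein genes and pseudogenes looked up, 3 had a probe set and 1 was tested. MT1HL1, by 211456_x_at, averaged 13.19 ± 0.02 log2 units in Aa cells and 13.54 ± 0.13 in control cells at 48 h (SD, n = 3 each). It fell by 0.35 (SE 0.09, limma adjusted p = 0.0135, and 0.0644 with only the groups compared), and its name ending marks it as cross-binding too.

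Most zinc exporters of the SLC30 family move zinc out of the cytosol. Of 6 tested besides SLC30A1, 1 rose and 1 fell at 24 h, and 0 rose and 2 fell at 48 h. Over all genes by their brightest probe set, 9.98% rose and 12.3% fell at 24 h, and 16.8% rose and 19.0% fell at 48 h. SLC30A7, which loads zinc into the Golgi, rose at 24 h (10.24 ± 0.15 in Aa cells, 9.74 ± 0.22 in control cells, difference 0.50, SE 0.16, limma adjusted p = 0.0437), while its dimmest tested probe set differed by -0.25. That call held in 13 of 25 alternatives (adjusted p up to 0.249). It was lost with no filter (0.101), with only the groups compared (0.0599), and without any 1 of the Aa arrays at 24 h, replicate 1 or 3 of the control cells at 24 h, or replicate 1 of either group at 48 h (0.0582 to 0.154). SLC30A9 fell at 24 h (difference -0.40, SE 0.09, limma adjusted p = 0.0102) and at 48 h (difference -0.48, SE 0.09, limma adjusted p = 0.00298). SLC30A2, an exporter of intracellular vesicles, fell at 48 h (8.27 ± 0.39 in Aa cells, 9.14 ± 0.32 in control cells, difference -0.87, SE 0.24, limma adjusted p = 0.0183), a call lost with no filter (0.0602) and without replicate 1 or 3 of the Aa cells or replicate 1 or 2 of the control cells at 48 h (0.0572 to 0.0731). The median difference of the list was 0.22 at 24 h and 0.11 at 48 h, beside -0.02 and 0.00 over all genes. With the replicate number as a block the list had 2 up and 2 down at 24 h. Over all genes the block gave 17.8% up and 21.9% down at 24 h, and 25.9% up and 27.2% down at 48 h.

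Zinc importers of the SLC39 family bring zinc into the cytosol. Of 11 tested, 1 rose and 4 fell at 24 h, and 3 rose and 4 fell at 48 h. Over all genes 9.98% rose and 12.3% fell at 24 h, and 16.8% rose and 19.0% fell at 48 h. The largest fall was that of SLC39A11, which averaged 4.69 ± 0.43 log2 units in Aa cells and 6.82 ± 0.20 in control cells at 24 h, and 4.44 ± 1.31 in Aa cells and 7.51 ± 0.18 in control cells at 48 h. The differences were -2.13 (SE 0.50, limma adjusted p = 0.012) and -3.07 (SE 0.50, limma adjusted p = 0.00119), with the Aa levels close to the filter. With no filter the 24 h call of SLC39A11 was lost, at an adjusted p that rounds to 0.05. SLC39A4, the intestinal zinc importer known from acrodermatitis enteropathica, fell by 1.35 at 24 h (SE 0.19, limma adjusted p = 0.000806) and fell by 1.38 at 48 h (SE 0.19, limma adjusted p = 0.000507). In Aa cells it averaged 7.98 ± 0.19 at 24 h, against 9.34 ± 0.25 in control cells.

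SLC39A13, whose protein lies in the early secretory pathway, fell by 1.17 at 24 h (SE 0.24, limma adjusted p = 0.00556) and fell by 1.29 at 48 h (SE 0.24, limma adjusted p = 0.00236). SLC39A8, which also carries cadmium and manganese, fell by 0.67 at 24 h (SE 0.18, limma adjusted p = 0.0222) and fell by 0.79 at 48 h (SE 0.18, limma adjusted p = 0.00762). The SLC39A8 call at 24 h was lost with no filter (0.0626) and without replicate 1 or 3 of the Aa cells or any 1 of the control arrays at 24 h (0.0567 to 0.0819). SLC39A10, a plasma membrane importer, rose by 0.46 at 24 h (SE 0.12, limma adjusted p = 0.0182) and by 0.62 at 48 h (SE 0.12, limma adjusted p = 0.00289), the 24 h call being lost without replicate 1 of the Aa cells (0.0704) or of the control cells (0.071) at 24 h. The other 2 that rose at 48 h were SLC39A6 (0.31) and SLC39A9 (0.32), and a second SLC39A9 probe set differed by -0.36. These calls held in 18 of 25 and 17 of 25 alternatives. Both were lost with only the groups compared (0.0884 for SLC39A6 and 0.0563 for SLC39A9). The SLC39A6 call was lost without replicate 1 or 3 of the Aa cells or replicate 1 or 2 of the control cells at 48 h (0.0785 to 0.101), and the SLC39A9 call without replicate 2 or 3 of the Aa cells or replicate 1 or 3 of the control cells at 48 h (0.0512 to 0.0763). SLC39A6, SLC39A8 and SLC39A9 were picked for mention after their values were seen. The list's median was -0.03 at 24 h and 0.03 at 48 h. The replicate block gave 5 up and 5 down at 48 h, where 25.9% of all genes rose and 27.2% fell.

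**Figure D5:**
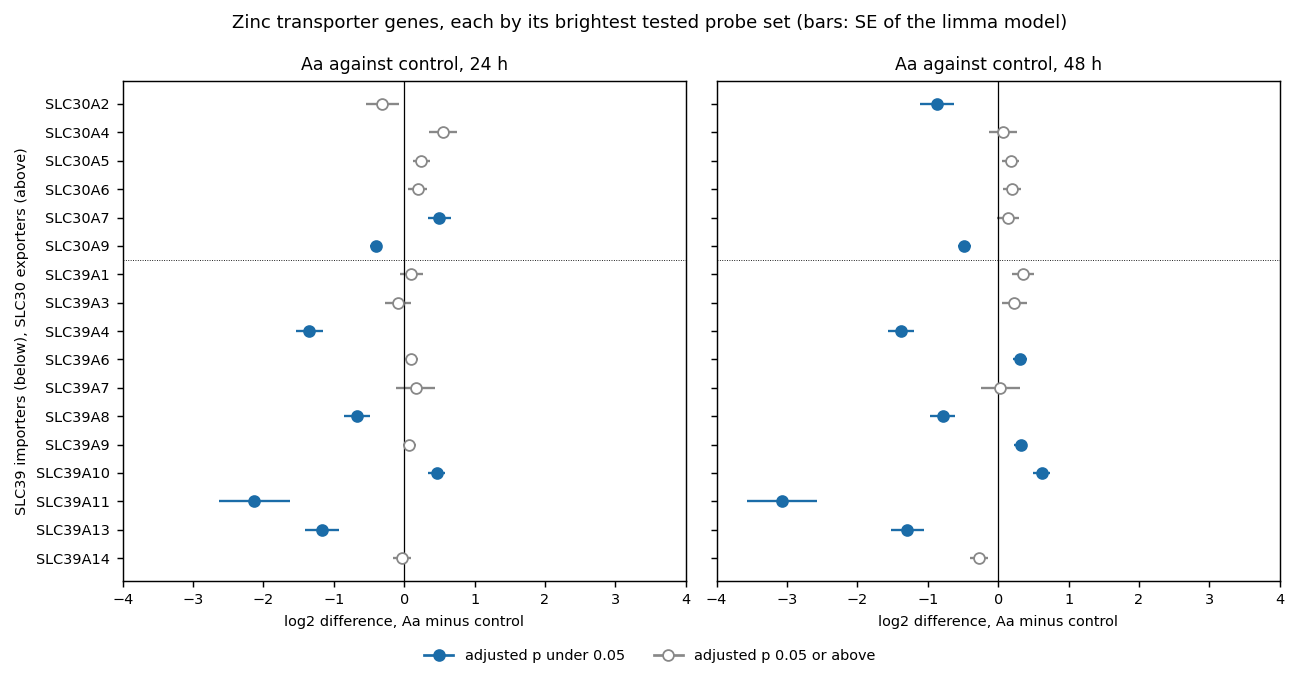
Difference of each tested zinc transporter gene besides SLC30A1, Aa minus control in log2 units, at 24 h (left) and 48 h (right), each by its brightest probe set with the SE of the limma model. Exporters (SLC30) are above the dotted line and importers (SLC39) below; SLC39A11 has the lowest value at both times, -2.13 and -3.07.

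Copper, which metallothioneins also bind, is handled by a list of chaperones and pumps of which 9 genes were tested. At 24 h 0 rose and 3 fell, and at 48 h 0 rose and 3 fell, with medians of -0.73 and -0.07. Over all genes 9.98% rose and 12.3% fell at 24 h, and 16.8% rose and 19.0% fell at 48 h. SCO2, which delivers copper to cytochrome c oxidase, fell by 0.79 at 24 h (SE 0.13, limma adjusted p = 0.00177) and fell by 0.94 at 48 h (SE 0.13, limma adjusted p = 0.000484). COMMD1, a regulator of copper export, fell by 1.45 at 24 h (SE 0.40, limma adjusted p = 0.0233) and fell by 2.56 at 48 h (SE 0.40, limma adjusted p = 0.000859). SCO1 fell at 24 h (difference -0.48) and ATP7A, a copper pump, at 48 h (difference -1.0). The SCO1 call held in 12 of 25 alternatives (adjusted p up to 0.34). It was lost with no filter (0.0913), with only the groups compared (0.0973), and without replicate 1 or 2 of the Aa cells or replicate 1 or 3 of the control cells at 24 h (0.0806 to 0.15), any 1 of the Aa arrays at 48 h or replicate 1 of the control cells at 48 h (0.0507 to 0.0562). The ATP7A call held in 18 of 24 alternatives and was lost with no filter (0.0657) and without replicate 1 or 3 of the Aa cells or replicate 2 of the control cells at 48 h (0.0607 to 0.0755). The COMMD1 call at 24 h was lost with no filter (0.0854) and without replicate 1 of the Aa cells or any 1 of the control arrays at 24 h (0.0554 to 0.0901). With the block 0 rose and 7 fell at 24 h, where 17.8% of all genes rose and 21.9% fell.

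Among 6 tested metal stress genes outside the metallothioneins, 1 rose and 0 fell at 24 h, and 1 rose and 1 fell at 48 h. Over all genes 9.98% rose and 12.3% fell at 24 h, and 16.8% rose and 19.0% fell at 48 h. TXNRD1, a thioredoxin reductase, rose by 0.51 at 24 h (SE 0.10, limma adjusted p = 0.00541). HMOX1, the haem oxygenase that metals and oxidants induce, averaged 8.97 ± 0.25 log2 units in Aa cells and 8.38 ± 0.17 in control cells at 24 h, and 9.05 ± 0.46 in Aa cells and 8.14 ± 0.33 in control cells at 48 h. It rose at 48 h (difference 0.91, SE 0.24, limma adjusted p = 0.0144), while its 24 h difference of 0.59 had an adjusted p of 0.103. The 48 h call was lost with only the groups compared (0.0537), and without replicate 3 of the Aa cells (0.055) or replicate 1 of the control cells at 48 h (0.0551). SLC7A11, a cystine transporter, fell by 2.69 at 48 h (SE 0.52, limma adjusted p = 0.00301). With the block 2 of the 6 rose at 24 h, where 17.8% of all genes rose.

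Of 7 tested glucocorticoid targets, 0 passed at 24 h, and at 48 h 1 rose and 1 fell. Over all genes 9.98% rose and 12.3% fell at 24 h, and 16.8% rose and 19.0% fell at 48 h. DUSP1, a MAP kinase phosphatase, rose by 0.59 at 48 h (SE 0.17, limma adjusted p = 0.0201), and SGK1, a kinase that regulates sodium channels, fell by 1.01 (SE 0.18, limma adjusted p = 0.00185). The DUSP1 call was lost with no filter (0.052) and without replicate 2 or 3 of the Aa cells or replicate 1 of the control cells at 48 h (0.0514 to 0.0744). FKBP5 averaged 11.69 ± 0.29 log2 units in Aa cells and 12.17 ± 0.12 in control cells at 48 h (limma adjusted p = 0.0678). With the block the counts were 4 up and 0 down at 24 h and 2 up and 4 down at 48 h. The block gave 17.8% up and 21.9% down over all genes at 24 h, and 25.9% and 27.2% at 48 h.

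A list headed as regulators of metallothionein transcription held 6 tested genes besides MTF1. Of these, 1 rose and 0 fell at each time, and that gene, UPF1, is known as a helicase of RNA decay and not as a transcription factor. Over all genes 9.98% rose and 12.3% fell at 24 h, and 16.8% rose and 19.0% fell at 48 h. SP1, USF2, NR3C1, CTCF and STAT3 did not pass at either time. UPF1 averaged 9.26 ± 0.43 log2 units in Aa cells and 7.99 ± 0.28 in control cells at 24 h, and 9.12 ± 0.31 in Aa cells and 7.89 ± 0.32 in control cells at 48 h. The differences were 1.27 (SE 0.25, limma adjusted p = 0.00469) and 1.23 (SE 0.25, limma adjusted p = 0.00404). NR3C1, the glucocorticoid receptor, by 216321_s_at differed by 0.35 at 24 h (limma adjusted p = 0.159) and by -0.27 at 48 h (limma adjusted p = 0.229). Its other tested probe sets did not share 1 sign. They differed by 0.44, 0.22, 0.47 and -0.65 at 24 h, and by 0.11, -0.25, 0.14 and -0.91 at 48 h. No direction is given for NR3C1 as a gene. With the block the counts were 4 up and 0 down at 24 h and 1 up and 2 down at 48 h. The block gave 17.8% up and 21.9% down over all genes at 24 h, and 25.9% and 27.2% at 48 h.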

How the data were processed

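Per the submitters' processing notes, the authors normalised the arrays with GCRMA, whose version is not stated, and the deposited values are log2 intensities (0.82 to 16.25). All value columns matched a sample. No build is named for the array, and coordinates and promoters are those of RefSeq GRCh38.p14. The array annotation gave 1 symbol to 41097 probe sets, several to 1801 and none to 11777.

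Non-control probe sets with a mean of at least 4 were kept (22515, 41.2% of 54613). A model of 4 group means over all 12 arrays was fitted with limma 3.58.1 in R 4.3.3 (lmFit and eBayes without trend, 8 residual and 2.66 prior degrees of freedom), and probe sets with a Benjamini-Hochberg adjusted p under 0.05 were called. Tests were two-sided. For arrays, their number limits the precision. All probe sets of the 9 genes are named, and from each list up to 4 genes with the smallest p. The 5 most and 5 least alike genes are named by Pearson's r. The members and lists were chosen with earlier results of these data known. RefSeq proteins were not used here. The code was tested on simulated data.

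Once each group mean had been taken off, arrays that shared a replicate number (18 pairs) correlated with r of 0.36 to 0.61 and the 36 other pairs with -0.50 to -0.03, and 12 of 12 arrays were closest to their own number. The labels do not explain the numbers, so this pairing is read from the data. Blocked values stand beside results whose call or count they change. Alternatives were other filters, centring, quantile normalisation, other eBayes settings, the block, fewer groups, unshared probe sets, 1 probe set per gene and arrays left out.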

Additional observations from a re-analysis of the deposited data

How the results depend on the processing

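The arrays number 3 per group, which limits precision, and the metallothionein calls rest on probe sets marked as cross-binding. The direction of all 9 called metallothionein differences at 48 h and of all 3 MTF1 differences at 24 h was the same under every alternative run. The call of MT1F by 213629_x_at at 48 h held in 23 of 23 alternatives, MT1E by 212859_x_at was called in 10 of 24 and MT1G in 9 of 24, and MTF1 by 205323_s_at at 24 h in 11 of 23. The 48 h call of MT1G was lost with no filter (limma adjusted p = 0.076), with centring (0.0501) and with quantile normalisation (0.0565). That of MT1E by 212859_x_at was lost with centring (0.0586).

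Counts of called member probe sets moved as follows. At 24 h (3 as reported, all MTF1) the count was 3 with no filter (2 up and 1 down, MT1F 217165_x_at), 4 with a trend in eBayes and 4 with trend and robust prior (3 up and the same MT1F probe set down), 4 with the replicate block (all up), 1 without shared probe sets and 1 with 1 probe set per gene, and 0 to 3 with arrays left out (0 without replicate number 1 or 3). At 48 h (9) it was 4 with only the groups compared and 0 without shared probe sets, and 1 to 9 with arrays left out (2, 5 and 1 without number 1, 2 and 3). The count also dropped with no filter, centring and quantile normalisation, which ended the MT1G and MT1E calls as given above. For Aa cells over time (4) it was 9 with a trend in eBayes, 9 with trend and robust prior, 10 with the replicate block, 0 with only the groups compared, 0 without shared probe sets and 0 to 5 with arrays left out. MT1G was called there with a filter of at least 6 (limma adjusted p = 0.043), quantile normalisation (0.0448) and 1 probe set per gene (0.0401). The replicate block gave 1 for the change of the Aa effect (0) and 2 for control cells over time (0), both of which stayed at 0 with arrays left out. Beyond the blocked calls given above, the block changed no other call of a member.

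Signs turned only in small uncalled differences. MT1G 204745_x_at at 24 h was 0.01 after centring and 0.03 after quantile normalisation. The change of the MT1M 217546_at effect was -0.01 and -0.03, and in control cells over time MTF1 205323_s_at was 0.01 and 0.01. MT1F 213629_x_at in control cells was 0.01 after centring. With arrays left out, the ranges at 24 h were -0.10 to 0.00 for MT1E 212859_x_at, -0.05 to 0.08 for MT1E 216336_x_at, -0.09 to 0.03 for MT1G, -0.10 to 0.18 for MT1M and -0.28 to 0.06 for SLC30A1 228181_at. At 48 h they were -0.06 to 0.17 for MT1M and -0.03 to 0.15 for SLC30A1 212907_at, which had -0.03 to 0.15 in Aa cells over time too. For the change of the effect they were -0.14 to 0.13 for MT1M and -0.39 to 0.08 for MTF1 205323_s_at. In control cells over time they were -0.17 to 0.01 for MT1E 216336_x_at, -0.06 to 0.07 for MT1F 213629_x_at, -0.06 to 0.08 for MTF1 205322_s_at, -0.13 to 0.10 for MTF1 205323_s_at, -0.07 to 0.23 for MTF1 227150_at and -0.32 to 0.04 for SLC30A1 228181_at. The cause of these changes was not tested. Calls of list genes that single arrays or the filter ended stand beside those genes. Leaving out replicate number 1 in all groups ended the further calls of SLC30A9, SLC39A4, SLC39A11, SLC39A13, SCO2, TXNRD1 and UPF1 at 24 h (adjusted p of 0.0525 to 0.191). At 48 h it ended those of MT1HL1, SLC30A9, SLC39A8, SLC39A11, SLC7A11 and SGK1 (0.0559 to 0.135). Leaving out number 3 ended those of SLC30A9, SLC39A11, SLC39A13, TXNRD1 and UPF1 at 24 h (0.0551 to 0.102). At 48 h number 3 ended those of MT1HL1, SLC30A9 and UPF1 (0.053 to 0.138).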
